A study of Mus musculus with 9 samples.

Results

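The genes described here are 41 members of the germ line's piRNA and meiotic programmes, chosen by symbol. Of these, 18 encode piRNA pathway and germ granule proteins and 23 encode proteins of meiotic chromosomes and recombination. Every one had a row in the tables, which list 52025 genes. RNA-Seq was performed on untreated Kunming mice at postnatal day (PD) 14, PD15 and PD16, the days over which the follicular antrum first forms, with 3 libraries for each day. All 9 libraries carry ovary as tissue, their source is labelled granulosa cells, and the study's account of these data gives 3 independent ovaries per day. No group received a treatment, and the labels give age as the difference between the groups. Litter and library batch are not in the labels, so they cannot be told apart from age. Levels are given as FPKM, the number of fragments per kilobase of transcript scaled to the mapped fragments of the library, which adjusts for gene length and library depth.

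PIWI-interacting RNAs (piRNAs) are small RNAs that guide PIWI proteins to transposon transcripts in germ cells, and much of their production takes place in germ granules beside mitochondria. Meiotic chromosome proteins build the axis and the synaptonemal complex, hold sister chromatids together, and cut and repair DNA during prophase of the first meiotic division. In the mouse ovary, oocytes pass through these steps before or around birth and are then arrested, so that postnatal follicles hold oocytes in which recombination is finished. Loss of the piRNA pathway in mice is known mainly for male sterility.

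The depth recovered from the FPKM steps was 20.4 to 28.7 M fragments per library. Oocyte markers outside the members, 24 genes such as Zp3 and Gdf9, summed to 1914 to 2727 FPKM, beside 3214 to 4100 FPKM for 14 granulosa cell markers. Markers of both cell types were therefore present in each library. In such bulk samples, fewer oocytes and less RNA per oocyte cannot be told apart. The members' own share of the FPKM total was 0.051% to 0.062%. A mean above 1 FPKM on at least 1 day was reached by 25 of the 41 members, and these entered the test with 15495 genes in all. The other 16 are described apart.

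The piRNA and germ granule genes were the better represented class. Their mean level had a median of 3.97 FPKM, against 0.68 FPKM for the meiotic chromosome genes, and 16 of 18 were tested, against 9 of 23. Of the 8 members with a mean above 10 FPKM, 6 were piRNA and germ granule genes (Gtsf1, Ddx4, Tdrd5, Mael, Tdrd1 and Dazl) and the others were Syce2 and Tex15. Transcripts of both classes were found, with a wide spread among the meiotic genes, from a mean of 23.5 FPKM for Syce2 to 0.0133 FPKM for Majin. The Majin mean rests on 5 fragments of PD15 replicate 1, and 8 libraries were listed at 0.

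**Figure D1:**
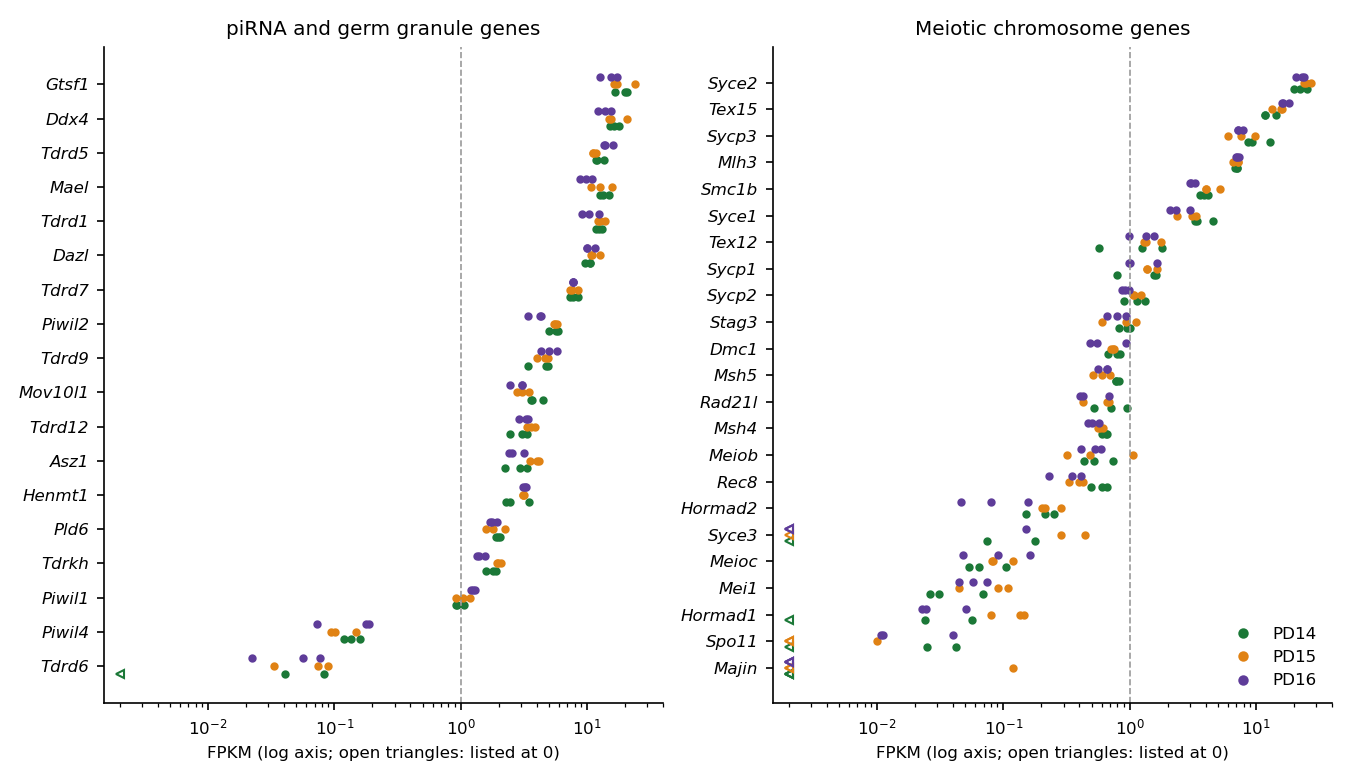
FPKM of each of the 41 members in each of the 9 libraries, on a log axis, with piRNA and germ granule genes on the left and meiotic chromosome genes on the right. Each point is a library coloured by day, an open triangle is a library listed at 0, and the dashed line marks 1 FPKM. Of the 18 piRNA and germ granule genes, 15 stood above 1 FPKM in all libraries, against 6 of the 23 meiotic chromosome genes.

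Among the germ granule genes, Gtsf1, which encodes a zinc finger cofactor of PIWI slicing, had the highest level. It was at 16.8, 20 and 20.7 FPKM in the PD14 libraries, at 16.5, 17.2 and 24.1 at PD15 and at 12.6, 15.4 and 17.3 at PD16. The days overlapped, and the highest library was PD15 replicate 3. Ddx4 encodes the germ cell helicase known as mouse vasa. Its levels were 17.9, 15.1 and 16.5 FPKM at PD14, 15.6, 14.9 and 20.6 at PD15 and 12.2, 14.0 and 15.5 at PD16, again with overlap and with the same highest library. Tdrd1 encodes a Tudor domain protein that binds PIWI proteins in granules. It read 13.2, 11.9 and 12.5 FPKM at PD14, 14.0, 12.8 and 12.2 at PD15 and 9.07, 10.3 and 12.5 at PD16, where replicate 3 reached the level of the earlier days. Dazl, an RNA-binding regulator of translation in germ cells, averaged 10.3 ± 0.516, 11.5 ± 1.13 and 10.6 ± 0.852 FPKM on the 3 days (SD, n = 3).

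The enzymes and scaffolds of piRNA production were lower. Tdrd7 averaged 7.88, 7.85 and 7.77 FPKM at PD14, PD15 and PD16 with log2 changes of -0.01, -0.02 and -0.01 in the 3 comparisons. Tdrd9 and Tdrd12, Tudor proteins with a helicase domain, averaged 4.64 and 3.26 FPKM over the libraries. Asz1, a mitochondrial granule scaffold, averaged 2.85 ± 0.563, 3.92 ± 0.311 and 2.71 ± 0.395 FPKM on the 3 days (SD, n = 3), and each PD15 library was above all libraries of the other days. Pld6, the mitochondrial nuclease of piRNA precursors, averaged 1.97, 1.89 and 1.81 FPKM. Tdrkh, which tethers PIWI proteins to mitochondria, averaged 1.76, 2.0 and 1.44 FPKM, but 36.7% of its exonic bases are shared with Oaz3 on the other strand, and the library kit did not mark strand, so its reads cannot be assigned with certainty. Henmt1 encodes the methyltransferase that protects piRNA ends. It was at 2.27, 2.48 and 3.47 FPKM at PD14, at 3.11, 3.16 and 3.11 at PD15 and at 3.26, 3.11 and 3.32 at PD16, and 14.7% of its exonic bases overlap Gm9857.

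Among the meiotic genes, Syce2, a central element protein of the synaptonemal complex, was highest, at 22.3, 20.1 and 25.3 FPKM at PD14, 23.8, 25.0 and 27.3 at PD15 and 24.2, 23.1 and 20.6 at PD16. Its partner Tex12 was far lower, at 1.25, 0.570 and 1.79 FPKM at PD14, 1.31, 1.36 and 1.78 at PD15 and 1.57, 0.997 and 1.35 at PD16. Both genes overlapped between all days, and another central element gene, Syce3, was close to 0. The transverse filament gene Sycp1 and the lateral element gene Sycp2 averaged 1.33 and 1.06 FPKM. Mlh3, a mismatch repair protein that resolves crossovers, varied little, at 7.07, 7.05 and 6.82 FPKM at PD14, 6.60, 7.27 and 7.24 at PD15 and 7.38, 6.90 and 7.04 at PD16, with log2 changes of 0.01, 0.02 and 0.01.

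Promoter sequences were compared because members of both classes share germ-line expression. RefSeq's table (GRCm38.p6) held 35 of the 41 members, and the 250 bases before each start were searched on both strands for 4 motifs. These were the E-box CACGTG, an E2F-type site GGCGGGA, the STRA8/MEIOSIN site CNCCTCAG and the NOBOX-type site TAATTG. The E-box was found in 13 of the 35 members (37.1%), against 6.9% of 27025 genes and 10% of those with a GC content of at least 60%. It was present in 43.8% of the piRNA and germ granule genes (Ddx4, Mael, Mov10l1, Piwil1, Pld6, Tdrd1 and Tdrd9) and in 31.6% of the meiotic genes (Hormad1, Stag3, Syce2, Sycp1, Sycp3 and Tex12). The E2F-type letters were in 17.1% of members, against 11% of all genes and 26.1% of the GC-rich ones. STRA8/MEIOSIN letters were in 11.4%, against 7.4% and 9.6%, and NOBOX-type letters in 8.6%, against 8.3% and 1.7%. Members' promoters were rich in CpG, with a median observed over expected ratio of 0.74 against 0.40 over all genes and 0.81 over the GC-rich ones. These are letter matches and describe no binding.

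**Figure D2:**
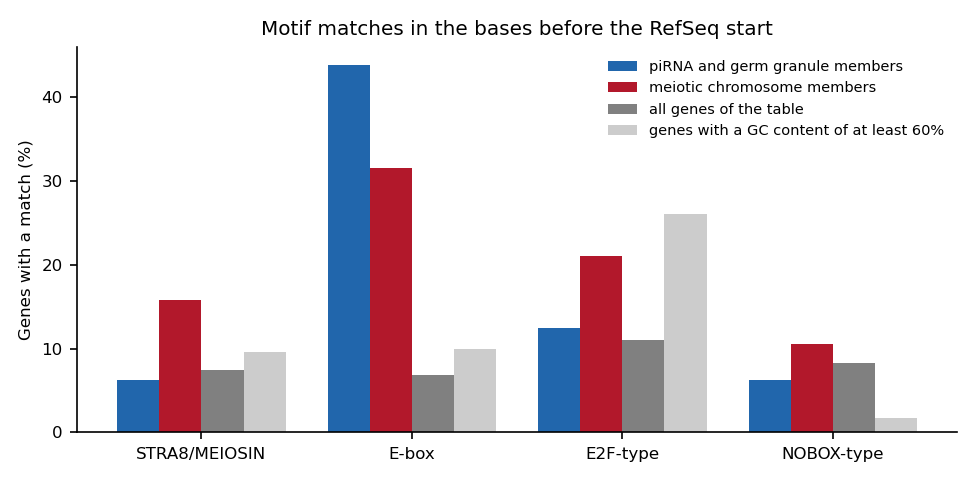
Share of genes whose 250 bases before the RefSeq start hold each of the 4 motifs, for the piRNA and germ granule members (16 genes), the meiotic chromosome members (19 genes), all 27025 genes of the table and the 8115 with a GC content of at least 60%. The E-box bars of both member classes, 43.8% and 31.6%, stand above the 6.9% and 10% of the other bars.

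Shown 5′ to 3′ on the gene's strand, with E-box and E2F-type letters in capitals, are 5 of these windows. Mael (chr1:166238745-166238994, minus strand) and Ddx4 (chr13:112652311-112652560, minus strand) carry 1 match to each motif. Piwil1 (chr5:128735996-128736245, plus strand) and Sycp3 (chr10:88459337-88459586, plus strand) carry 2 E-boxes each, and Tdrd5 (chr1:156303349-156303598, minus strand) carries no match and is shown for contrast. GENCODE places these starts elsewhere. Its gene models begin upstream of the window for Piwil1 (position 128702524) and Tdrd5 (156303664), and inside it for Mael (166238747), Ddx4 (112652475) and Sycp3 (88459569). The start used in these ovaries was not measured, so the lack of a match for Tdrd5 covers this window only.
Mael: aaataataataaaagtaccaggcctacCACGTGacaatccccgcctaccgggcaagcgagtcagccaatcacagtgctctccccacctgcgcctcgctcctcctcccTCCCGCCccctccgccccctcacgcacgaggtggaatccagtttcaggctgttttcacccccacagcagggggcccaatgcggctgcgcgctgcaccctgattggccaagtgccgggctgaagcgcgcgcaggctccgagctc
Ddx4: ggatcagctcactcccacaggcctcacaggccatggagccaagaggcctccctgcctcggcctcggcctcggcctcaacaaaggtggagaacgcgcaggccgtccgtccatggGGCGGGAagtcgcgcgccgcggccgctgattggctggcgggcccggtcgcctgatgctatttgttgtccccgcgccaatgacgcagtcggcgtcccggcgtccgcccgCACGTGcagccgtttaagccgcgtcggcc
Piwil1: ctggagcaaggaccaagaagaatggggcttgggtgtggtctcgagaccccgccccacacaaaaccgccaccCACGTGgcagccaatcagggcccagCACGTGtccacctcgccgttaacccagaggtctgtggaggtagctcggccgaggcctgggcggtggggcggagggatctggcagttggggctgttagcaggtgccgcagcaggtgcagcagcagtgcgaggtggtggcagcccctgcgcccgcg
Sycp3: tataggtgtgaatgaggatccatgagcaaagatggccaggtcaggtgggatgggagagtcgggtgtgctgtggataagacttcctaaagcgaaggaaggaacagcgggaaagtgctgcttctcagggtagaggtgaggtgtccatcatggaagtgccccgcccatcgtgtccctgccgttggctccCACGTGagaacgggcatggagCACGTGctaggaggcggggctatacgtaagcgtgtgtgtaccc
Tdrd5: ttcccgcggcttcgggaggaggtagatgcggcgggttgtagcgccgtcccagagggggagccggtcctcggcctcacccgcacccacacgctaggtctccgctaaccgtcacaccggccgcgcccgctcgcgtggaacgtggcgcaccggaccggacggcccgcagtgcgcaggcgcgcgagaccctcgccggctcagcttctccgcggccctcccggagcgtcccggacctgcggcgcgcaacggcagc

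Between PD14 and PD16, the longest interval, Piwil2 was the single member that changed by the test. Piwil2 (ENSMUSG00000033644) encodes MILI, the PIWI protein that takes up piRNAs first in the mouse germ line. It stood at 5.05, 5.95 and 5.67 FPKM in the PD14 libraries, at 5.83, 5.57 and 5.50 at PD15 and at 3.41, 4.36 and 4.25 at PD16. All PD16 libraries were below all others, and PD14 and PD15 overlapped. The means were 5.55 ± 0.459 and 4.01 ± 0.519 FPKM (SD, n = 3), a ratio of 0.721. The log2(FPKM + 1) change was -0.39 (SE 0.09), with an adjusted p of 0.0404 in limma. This call was lost in each of the 9 fits that left out a library, with limma adjusted p-values of 0.0518 to 0.127. It was also lost with a filter at 0.1 FPKM (limma adjusted p 0.0677), with no filter (0.0975), with only the libraries of the 2 days (0.0814), with the replicate block (0.0656) and when the libraries were centred on oocyte markers (0.240).

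One call among 25 tested members compares with 4.25% of all genes tested in this comparison, with 2.36% higher and 1.89% lower at PD16. At an unadjusted p under 0.05, 2 members were higher and 7 lower, which is 36.0% of the tested members beside 22.8% of all tested genes. The PD14 and PD16 libraries did not overlap for 10 members (40%, beside 28.5% of all genes, 15.0% higher and 13.5% lower), with Tex15, Tdrd5 and Piwil1 higher and Mael, Piwil2, Mov10l1, Tdrkh, Sycp3, Syce1 and Smc1b lower at PD16. The median log2 change was -0.07 for the piRNA and germ granule genes and -0.06 for the meiotic genes, against 0.01 for all genes. When recovered fragments were tested by limma voom, a choice made after the data were seen, 4 members were called, beside 6.52% of all genes in that fit, with Mael, Mov10l1 and Piwil2 lower and Tex15 higher. These counts and medians include Piwil1 and Sycp2, which passed the filter only through the days on which they were higher. Without them, 9 of 23 tested members did not overlap (39.1%), 9 were under 0.05 before adjustment (39.1%), and the medians were -0.08 and -0.02.

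**Figure D3:**
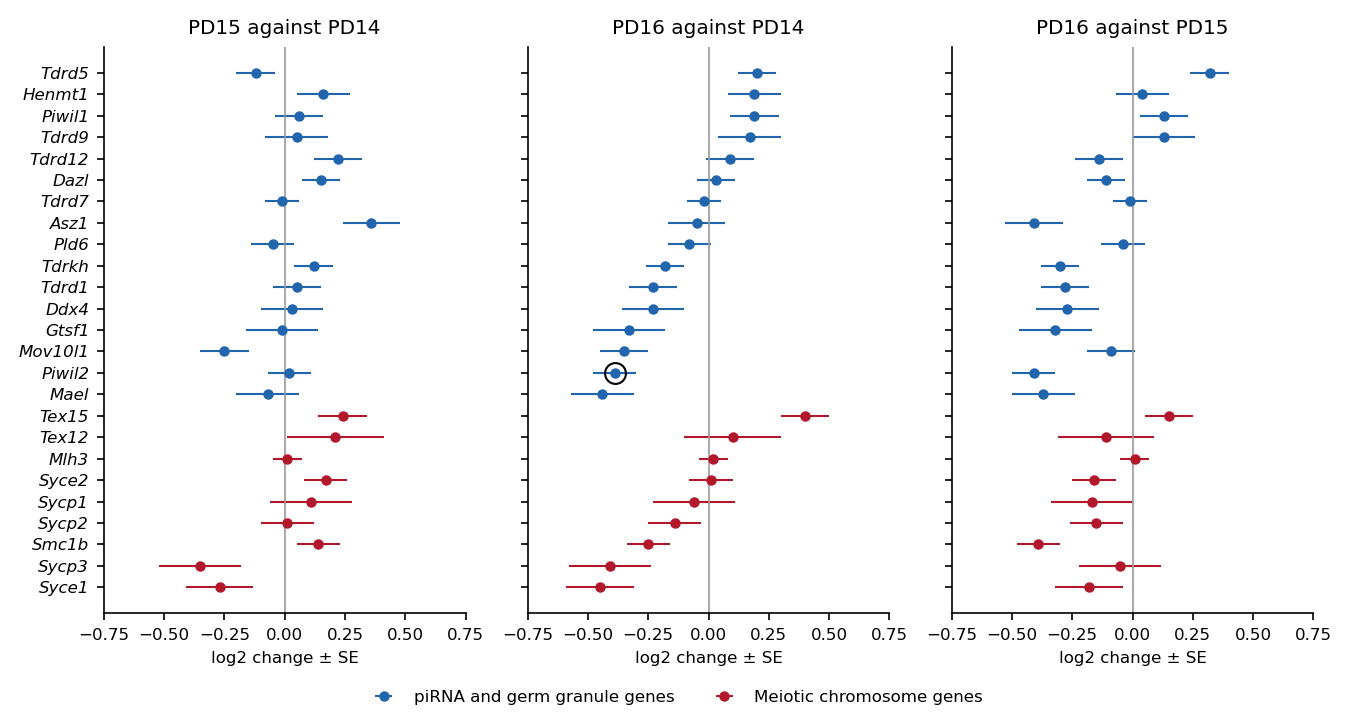
Change in log2(FPKM + 1) of the 25 tested members between days, with bars of 1 SE from limma, for piRNA and germ granule genes (blue) and meiotic chromosome genes (red). The circle marks Piwil2 at PD16 against PD14, -0.39, the single change with an adjusted p under 0.05. Genes are in the same order in the 3 panels.

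Several genes of piRNA production had lower PD16 levels that did not pass the test. Mael (ENSMUSG00000040629), a germ granule protein needed for transposon silencing, was at 13.5, 12.7 and 15.0 FPKM at PD14, 10.8, 12.8 and 15.8 at PD15 and 9.88, 8.82 and 10.9 at PD16. The PD15 libraries overlapped with both other days, while PD14 and PD16 stood apart. Its log2 change from PD14 to PD16 was -0.44 (SE 0.13), with a limma adjusted p of 0.0804, and it was called when PD15 replicate 3 was left out (limma adjusted p 0.0436). Mov10l1 encodes the helicase that feeds precursor RNA into piRNA processing. It was at 3.62, 3.65 and 4.51 FPKM at PD14, at 2.82, 3.47 and 3.09 at PD15 and at 2.47, 3.09 and 3.04 at PD16, so that each PD14 library was above every later one. The change to PD16 was -0.35 (SE 0.10), with a limma adjusted p of 0.0865. Gtsf1 and Ddx4, described above, differed by -0.33 (SE 0.15) and -0.23 (SE 0.13), with limma adjusted p-values of 0.236 and 0.301 and overlapping libraries. Without PD16 replicate 1 these differences were -0.21 and -0.15.

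Other piRNA and germ granule genes had higher PD16 levels, also without passing the test. Tdrd5 (ENSMUSG00000060985), a Tudor domain protein required for piRNA precursor processing, was at 11.7, 12.1 and 13.7 FPKM at PD14, 11.1, 11.8 and 11.2 at PD15 and 16.2, 13.8 and 13.7 at PD16. The lowest PD16 library was above the highest PD14 one by less than the rounding of these values, and the log2 change was 0.20 (SE 0.08), with a limma adjusted p of 0.163, and 0.13 without PD16 replicate 1. Piwil1, which encodes MIWI, was at 0.918, 0.940 and 1.06 FPKM at PD14, 1.05, 1.19 and 0.918 at PD15 and 1.29, 1.25 and 1.20 at PD16. These levels rest on 94 to 134 fragments per library, and Piwil1 entered the test only through its later days. Its log2 change to PD16 was 0.19 (SE 0.10), with a limma adjusted p of 0.273. Henmt1 differed by 0.19 (SE 0.11), with a limma adjusted p of 0.324, and by 0.10 without PD14 replicate 1 and 0.33 without PD14 replicate 3.

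**Figure D4:**
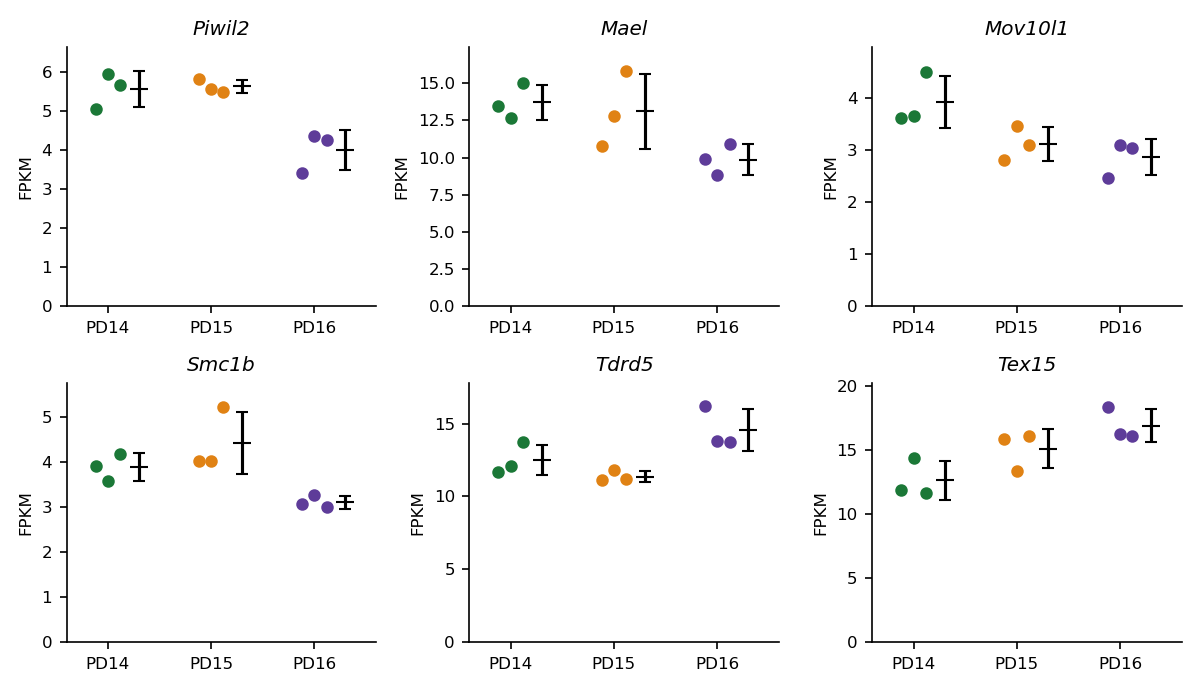
FPKM of 6 members in the 3 libraries of each day (points), with the mean and SD of the day beside them and axes from 0. The PD16 points of Piwil2 (3.41 to 4.36) and Smc1b (2.99 to 3.27) lie below those of both other days, and the PD16 points of Tdrd5 (13.7 to 16.2) and Tex15 (16.1 to 18.4) lie above those of PD14.

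For the meiotic genes, no tested member changed between PD14 and PD16 in limma, while 1 was higher and 3 lower at an unadjusted p under 0.05 (44.4% of the 9 tested, beside 22.8% of all genes). Voom called 1, Tex15, beside 6.52% of all genes in that fit. Tex15 (ENSMUSG00000009628) encodes a large germ cell protein known for meiotic DNA repair and for transposon silencing. It was at 11.9, 14.4 and 11.7 FPKM at PD14, 15.9, 13.4 and 16.1 at PD15 and 18.4, 16.3 and 16.1 at PD16. PD14 and PD15 overlapped, and PD16 stood above PD14 and, by less than the rounding of these values, above PD15. PD14 and PD16 had means of 12.7 ± 1.52 and 17 ± 1.26 FPKM (SD, n = 3). The log2 change was 0.40 (SE 0.10), with a limma adjusted p of 0.0535, and it passed the test when PD14 replicate 2 was left out (limma adjusted p 0.0381).

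Among the axis and synaptonemal complex genes, Sycp3, Syce1 and Smc1b had lower PD16 levels that did not pass the test. Sycp3 is a lateral element protein, and 52.2% of its exonic bases are shared with Chpt1 on the other strand, so its level is uncertain. It was at 8.62, 9.23 and 12.9 FPKM at PD14, 6.06, 7.58 and 9.86 at PD15 and 7.17, 7.84 and 7.15 at PD16. The change to PD16 was -0.41 (SE 0.17), with a limma adjusted p of 0.190, and -0.24 without PD14 replicate 3. Syce1, a central element protein, was at 3.27, 3.43 and 4.57 FPKM at PD14, 3.12, 2.36 and 3.34 at PD15 and 2.07, 2.35 and 2.99 at PD16, a change of -0.45 (SE 0.14) with a limma adjusted p of 0.10. In both genes PD14 replicate 3 was the highest library, and PD14 and PD16 did not overlap. Smc1b, the cohesin ring subunit of meiotic cells, was at 3.90, 3.58 and 4.18 FPKM at PD14, 4.02, 4.01 and 5.21 at PD15 and 3.06, 3.27 and 2.99 at PD16. PD16 lay below both other days, with a change from PD14 of -0.25 (SE 0.09) and a limma adjusted p of 0.156. Sycp1, Sycp2, Syce2 and Tex12 differed by -0.06, -0.14, 0.01 and 0.10. Over the fits that left out a library, Syce2 ran from -0.07 to 0.09 and Tex12 from -0.12 to 0.29, so neither direction was settled.

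Between PD14 and PD15, no member was called by limma (background 0.678% of all genes) or by voom, and at an unadjusted p under 0.05 2 were higher and 1 lower (12% of the tested members, beside 14.7% of all genes). Dazl, Tdrkh and Asz1 were higher and Mov10l1 lower without overlap, which is 16.0% of the tested members beside 20.6% of all genes (10.4% higher and 10.2% lower). The median log2 change was 0.04 for the piRNA and germ granule genes and 0.11 for the meiotic genes. Leaving out Piwil1 and Sycp2, 4 of 23 did not overlap (17.4%), and the medians were 0.03 and 0.12. The largest values were 0.36 (SE 0.12) for Asz1 and -0.35 (SE 0.17) for Sycp3, with limma adjusted p-values of 0.207 and 0.368, and Sycp3 was at -0.19 without PD14 replicate 3 and -0.20 without PD15 replicate 1.

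Between PD15 and PD16, limma called no member (background 0.729%, of which 0.432% higher and 0.297% lower), with 1 higher and 6 lower at an unadjusted p under 0.05 (28.0%, beside 14.1% of all genes). Voom called Piwil2 and Smc1b, both lower, beside 1.23% of all genes in that fit. Libraries did not overlap for 8 members (32.0%, beside 19.6% of all genes, 9.85% higher and 9.73% lower), of which Piwil1, Tdrd5 and Tex15 were higher and Piwil2, Tdrkh, Asz1, Sycp2 and Smc1b lower at PD16. Without Piwil1 and Sycp2 the count was 6 of 23 (26.1%), and 7 of 23 were under 0.05 before adjustment (30.4%). Piwil2 differed by -0.41 (SE 0.09), with a limma adjusted p of 0.0693. Smc1b differed by -0.39 (SE 0.09) and Tdrd5 by 0.32 (SE 0.08), with limma adjusted p-values of 0.101 and 0.0998. Of 25 tested members, 19 had a lower mean log2 level at PD16 (76.0%, beside 46.8% of all genes), and the medians were -0.12 for piRNA and germ granule genes and -0.15 for meiotic genes. Leaving out Piwil1 and Sycp2, 18 of 23 were lower (78.3%), with a median of -0.14 in each class. These comparisons share libraries, so Piwil2 at PD16 enters both of its differences.

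Oocyte markers differed between the days as well. All 24 were lower at PD16 than at PD15, 2 of them by the limma test (Zp2 and Nlrp5), with a median log2 change of -0.32. From PD14 to PD15 their median was 0.20, and from PD14 to PD16 it was -0.20. In that last comparison 5 of 24 were higher, and Bmp15, an oocyte growth factor, rose from 49.7 to 65.4 FPKM (log2 change 0.39, limma adjusted p 0.0331). Their summed FPKM was 2016 to 2542 at PD14, 2594 to 2727 at PD15 and 1914 to 2052 at PD16. When the libraries were centred on these markers, Piwil2's change from PD14 to PD16 was -0.23 with a limma adjusted p of 0.240, and Tex15's was 0.56 with 0.0385, where 824 of 15495 genes were called. On that scale the medians of both member classes turned sign in the 3 comparisons, while the median of all genes moved to -0.16 (PD15 against PD14), 0.17 (PD16 against PD14) and 0.34 (PD16 against PD15), and 7 members were called higher at PD16 than at PD15 (Tex15, Tdrd5, Piwil1, Henmt1, Mlh3, Tdrd7 and Tdrd9) among 9009 genes called, which is 58.1% of all genes. Other marker lists differed too between PD14 and PD16. Of 10 oviduct and surface epithelium markers, 6 were tested, of which 4 were lower at PD16 and 2 higher. Their log2 changes ran from -0.48 to 0.11 with a median of -0.34, and 3 were called lower. All 10 summed to 61.0 to 69.8 FPKM at PD14, 54.3 to 61.7 at PD15 and 46.8 to 52.1 at PD16. Of 14 granulosa cell markers, 2 were called higher and 2 lower, with a median of -0.06. Of 8 tested blood cell markers, 1 was called higher at PD16, and 1 was called lower at PD15 than at PD14. None of 8 theca and 12 stromal or vessel markers was called by limma between PD14 and PD16, where 2 and 1 of them were lower and 0 higher before adjustment at p under 0.05. The part of cell composition in the members' levels was not tested.

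**Figure D5:**
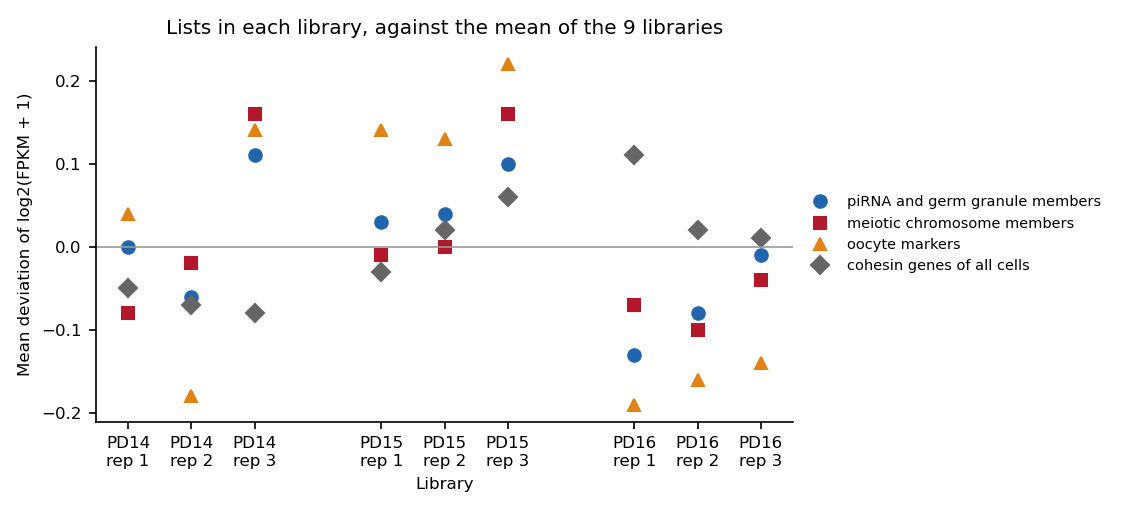
Mean deviation of log2(FPKM + 1) from the mean of the 9 libraries, per library, for the tested piRNA and germ granule members, meiotic chromosome members, oocyte markers and cohesin genes used in all cells. PD15 replicate 3 and PD14 replicate 3 are highest for both member classes (0.10 and 0.11 for the piRNA genes, 0.16 in each for the meiotic genes), and oocyte markers are lowest in PD16 replicate 1 and PD14 replicate 2.

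The 16 members under the filter were mostly genes of meiotic prophase. Spo11, the enzyme that makes meiotic double-strand breaks, had at most 0.0422 FPKM and was listed at 0 in 3 libraries. Mei1, required for these breaks, reached at most 0.110 FPKM, and Hormad1 and Hormad2, axis proteins that monitor synapsis, at most 0.146 and 0.287. Majin, which anchors telomeres to the nuclear envelope, was at 0 in 8 of 9 libraries, where a count of 0 allows up to 0.064 to 0.090 FPKM (3 fragments, counting error only). Syce3 was at 0 in 4 libraries and reached at most 0.441 FPKM. Genes acting in strand exchange and crossover formation were higher, as Dmc1 reached 0.933, Meiob 1.06, Msh5 0.824 and Msh4 0.657 FPKM. The meiotic cohesin subunits Stag3, Rad21l and Rec8 reached 1.12, 0.947 and 0.661 FPKM. Meioc, a partner of the RNA helicase YTHDC2 in meiotic entry, reached 0.162 FPKM, and the piRNA genes Piwil4 and Tdrd6 reached 0.190 and 0.0892 FPKM.

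Of the 12 low members with a highest day mean of 0.1 to 1 FPKM, 3 had non-overlapping, lower PD16 libraries than PD14 (25.0%, beside 7.76% of 9105 genes in that range). This share was taken only for the lower direction between PD14 and PD16. The 9105 genes were not matched to the members by level or fragments, so the 2 shares are not strictly alike. Rec8 was at 0.609, 0.497 and 0.661 FPKM at PD14, 0.429, 0.398 and 0.329 at PD15 and 0.229, 0.353 and 0.415 at PD16. All PD14 libraries exceeded the later ones, and with every gene kept in the fit the log2 change was -0.26, with a limma adjusted p of 0.167. Msh4 averaged 0.637 and 0.516 FPKM and Msh5 0.796 and 0.628 FPKM on PD14 and PD16, with limma adjusted p-values of 0.483 and 0.446 in that fit. Hormad1 read highest at PD15, at 0.136, 0.146 and 0.0805 FPKM against 0.00, 0.0239 and 0.0568 at PD14, with a limma adjusted p of 0.232 in that fit. These values are 6, 6 and 4 fragments at PD15 against 0, 1 and 2 at PD14, too few to name a highest day with certainty.

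Cohesin genes show how much lower the meiotic subunits were than their general counterparts on the length-adjusted scale. Smc1a, the ring subunit of all cells, was 6.6 to 11.2 times Smc1b over the 9 libraries. Rad21, the kleisin of mitotic cells, was 111.6 to 370.2 times Rec8 and 77.9 to 209.5 times Rad21l, while Stag1 was 8.8 to 17.4 times and Stag2 22.6 to 43.5 times Stag3. Ovarian somatic cells express the general subunits, so the ratios are those of whole libraries. The ratio of Smc1a to Smc1b was 6.9 to 8.5 at PD14, 6.6 to 7.7 at PD15 and 9.9 to 11.2 at PD16. That of Rad21 to Rec8 was 111.6 to 150.7, 164.5 to 210.0 and 172.3 to 370.2 on the same days. Ratios to Rad21l and Stag3 overlapped between all days. The ratios were not tested, and the main fit did not call Smc1b.

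Beyond the members, 3 genes of the wider pathways changed, 1 in each of 3 lists of 14 to 20 tested genes, where 4.25% of all genes were called between PD14 and PD16. Of 18 further piRNA and germ granule genes tested, Fkbp6, a co-chaperone of PIWI loading, fell between PD14 and PD16, from 5.24, 5.83 and 8.15 FPKM to 3.81, 4.20 and 4.19, by 0.53 on the log2 scale (limma adjusted p 0.0484, 0.0476 to 0.145 over the 9 fits without a library, kept in 1), and the other 17 were not called. Of 20 further meiotic and germ cell genes, 1 was called, Tex14, which keeps the bridges between germ cells open. Tex14 was at 2.85, 3.49 and 3.16 FPKM at PD14, 2.86, 3.4 and 3.76 at PD15 and 7.33, 5.44 and 5.97 at PD16, so that every PD16 library lay above all others. It rose from PD14 to PD16 by 0.79 (SE 0.11, limma adjusted p 0.0121, kept in 9 of 9 fits without a library) and from PD15 to PD16 by 0.74 (SE 0.11, limma adjusted p 0.0314, kept in 4 of 9). Of 14 cohesin genes used in all cells, Smc3 rose from 23.9 to 28.7 FPKM between PD14 and PD16 (log2 change 0.26, limma adjusted p 0.0413, kept in 2 of 9), and 12 of 14 had higher mean log2 levels, beside 52.2% of all genes. The Fkbp6 and Smc3 calls were also lost in other fits (limma adjusted p 0.0567 to 0.118 for Fkbp6 and 0.0549 to 0.0881 for Smc3), as was the Tex14 call between PD15 and PD16 (0.0528 to 0.105). None of 6 mismatch repair genes outside the members was called by limma between PD14 and PD16, where 1 was higher and 1 lower before adjustment at p under 0.05.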

How the data were processed

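Ovarian RNA from Kunming mice was sequenced at PD14, PD15 and PD16. The authors deposited FPKM in 1 table per library, and per the labels reads were mapped with HISAT2 2.0.5 to mm10; the annotation and counting tool are not given in the sources used here. Libraries were grouped by the day in their titles. The members and lists were chosen with earlier results of these data known. With GENCODE M21 exon lengths, 94.2% to 94.7% of low values were whole fragments (tolerance 0.02), which gave a depth of 20.4 to 28.7 M fragments per library. Genes whose average passed 1 FPKM on any day entered the test as log2(FPKM + 1) in limma 3.58.1 (R 4.3.3) with an intensity trend over all 9 libraries, and p-values were adjusted over 15495 genes by the Benjamini-Hochberg method at 0.05. Fold changes of low genes are understated on this scale. The test was checked on simulated data, in which not every gene given a change was called. Members called, among the 5 highest of their class, or among its 3 largest rises or falls from PD14 to PD16 are given in every library; pathway genes are named where called or as paralogs of a member, and other low genes by their highest level. Alternatives covered pseudocounts of 0.1 and 0.5, the filter, scaling, the limma settings, the days fitted, a replicate block, leaving out each library and, added after the data were seen, voom on recovered fragments.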

Additional observations from a re-analysis of the deposited data

How the results depend on the processing

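No alternative reversed a called change. The number of members called between PD14 and PD16, 1, became 0 with a filter at 0.1 FPKM, with no filter, with only the libraries of the 2 days and with the replicate block, and 4 with voom on recovered fragments, while it was 0 to 1 over the fits without a library, with Tex15 (without PD14 replicate 2) or Mael (without PD15 replicate 3) in place of Piwil2. Centred on oocyte markers, the count between PD14 and PD16 stayed at 1, with Tex15 called higher in place of Piwil2. Between PD15 and PD16 the count was 7 when centred on oocyte markers, beside 58.1% of all genes called there, and 2 with voom, beside 1.23%. Centring on oocyte markers gave medians of -0.12, 0.10 and 0.20 for the piRNA and germ granule genes (PD15 against PD14, PD16 against PD14 and PD16 against PD15) and -0.05, 0.11 and 0.18 for the meiotic genes. This centring shifts every gene alike (medians of all genes -0.16, 0.17 and 0.34), so the turned signs follow from its construction. Voom gave -0.14 for the piRNA genes between PD14 and PD16, and the filter at 0.1 FPKM gave 0.02 for the meiotic genes between PD14 and PD15 (0.03 with no filter). The piRNA median between PD14 and PD16, -0.07, was -0.03 with no filter. The meiotic median between PD14 and PD16, -0.06, was -0.11 with voom and -0.10 with the filter at 0.1 FPKM. Between PD14 and PD15, 0.11, it was 0.17 with a pseudocount of 0.1, and between PD15 and PD16, -0.15, it was -0.08 and -0.07 under the 2 filters and -0.23 with voom. Without a library, the meiotic median ran from 0.02 to 0.18 (PD15 against PD14), from -0.22 to 0.01 (PD16 against PD14) and from -0.16 to -0.10 (PD16 against PD15). The piRNA median ran from 0.02 to 0.05, from -0.12 to -0.03 and from -0.18 to -0.10. The filters and the 2-day fit change the genes or libraries that enter; the cause of the voom differences was not tested.

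Replicate numbers did not pair the libraries. Deviations of same-numbered libraries correlated with r from -0.21 to 0.16 over 9 pairs, and other pairs from -0.20 to 0.21. With the replicate block, 0 members and 227 genes in all were called between PD14 and PD16, and Piwil2 had a limma adjusted p of 0.0656.

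Among the pathway genes, Fkbp6 was no longer called with either other filter (limma adjusted p 0.0791 and 0.118), without the intensity trend (0.0581), with only the 2 days (0.0895), with the replicate block (0.0567) or centred on oocyte markers (0.0829). Smc3 was no longer called with the filters (0.0549 and 0.0723), without the trend (0.0580), with the 2 days (0.0766), the block (0.0881) or voom (0.0567). Tex14 was called between PD14 and PD16 in each alternative, and between PD15 and PD16 it was lost with the filters (0.0582 and 0.105), the 2 days (0.0528) and the block (0.0759).

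Depth limits the low members: those under the filter had 5 to 1093 fragments over all 9 libraries, and tested members at least 297.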
